A study of Mus musculus with 18 samples.

Results

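Skeletal muscle genes were examined in tumors grown from K7M2 cells, an osteosarcoma line that was derived from a Balb/c mouse. The genes are a list of 39 symbols given by name, and the list was chosen with earlier results of these data known. Of the 39 genes, 39 were among the 20878 genes of the expression matrix. They comprise 34 genes of the mature muscle fiber and 5 regulators of muscle formation and upkeep. The study grafted K7M2 cells with a lentiviral shRNA against ATRX (ATRX KD) or a control shRNA (ATRX CT) into immunocompetent Balb/c mice and immunodeficient NSG mice, in order to ask how this chromatin remodeler bears on tumor growth and the immune response. RNA was sequenced from 18 tumors, each of a different animal: in Balb/c mice 4 of ATRX CT and 4 of ATRX KD cells, and in NSG mice 5 of each.

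Balb/c mice are syngeneic to K7M2 cells. NSG mice (NOD.Cg-Prkdc scid Il2rg tm1Wjl/SzJ) lack T, B and NK cells. All hosts were female and 6 to 8 weeks old, and all tumors, the controls included, came from cells that carried an shRNA. Each shRNA was used in a single transduced cell population, and whole cages received the same cells. The labels give no cage, so cage, cell population and knock-down cannot be told apart. Tumors are named here by host, shRNA and mouse number, so that NSG CT 3 is the ATRX CT tumor of NSG mouse 3.

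A muscle fiber contracts when calcium, released from the sarcoplasmic reticulum through the channel that Ryr1 encodes, binds troponin on the thin filament and lets myosin pull on actin. Fast and slow fibers use different genes for the same parts: Myh4, Myh1 and Myh2 encode the heavy chains of 2B, 2X and 2A fibers, and Myh7 that of slow fibers. Fibers form from precursor cells under the transcription factors MyoD and myogenin, which bind the E-box, whose letters are CANNTG with N for any base. Newly formed fibers pass through a stage with embryonic and neonatal heavy chains (Myh3 and Myh8). KLHL40 and KLHL41 are kelch proteins that stabilise thin filament proteins in skeletal muscle, and Murc (also called Cavin4) encodes the muscle member of the cavin family, which coats caveolae, the small flask-shaped pits of the cell membrane.

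Library depth, estimated from the steps between low values, was 15150000 to 25250000 fragments per tumor. The slope of the log2 level along log2 transcript length, which shows how far a library favours long over short transcripts, ran from -0.146 in NSG CT 4 to 0.211 in Balb/c KD 56. Atrx had 10.3 to 26.0 FPKM in Balb/c CT and 7.88 to 21.5 FPKM in Balb/c KD tumors. In NSG mice it had 11.6 to 24.4 FPKM in CT and 8.42 to 16.4 FPKM in KD tumors. The groups thus overlapped in both hosts, and the RNA of the target could not check the labels. KD minus CT for Atrx was -0.34 ± 0.36 (log2, SE; limma, adjusted p = 0.999) in Balb/c mice. It was -0.74 ± 0.22 (limma, adjusted p = 0.0610) in NSG mice. The study reported loss of ATRX protein in the K7M2 cells by western blot. The 8 T cell markers summed to 19.6 to 43.7 FPKM in Balb/c tumors and to 0.0537 to 0.511 FPKM in NSG tumors, which matches the host labels. Of 8 osteoblast markers, Runx2, Col1a1 and Spp1 were abundant in every tumor (at least 3.54, 56.6 and 180.3 FPKM), whereas Sp7, Ibsp, Dmp1 and Bglap were at or under 0.431 FPKM in every tumor. Alpl was also low, at 0.0512 to 0.662 FPKM.

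The promoters of the genes on which the results turn are given first. Those of Klhl40 and Murc are shown because these were the regulators that differed with the knock-down, and those of Mylpf and Myh4 because they are fast fiber genes that did not. Each run is the 250 bases before the start site on the strand of the gene, from RefSeq on GRCm38.p6, and capitals mark each match to the E-box. The regions are chr9:121777357-121777606 for Klhl40, chr4:48663264-48663513 for Murc, chr7:127211358-127211607 for Mylpf and chr11:67237562-67237811 for Myh4, all on the plus strand.
Klhl40: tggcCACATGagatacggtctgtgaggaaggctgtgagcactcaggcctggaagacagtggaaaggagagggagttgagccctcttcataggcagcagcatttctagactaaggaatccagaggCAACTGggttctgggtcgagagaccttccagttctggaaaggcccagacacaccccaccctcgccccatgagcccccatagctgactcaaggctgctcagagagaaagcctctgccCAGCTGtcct
Murc: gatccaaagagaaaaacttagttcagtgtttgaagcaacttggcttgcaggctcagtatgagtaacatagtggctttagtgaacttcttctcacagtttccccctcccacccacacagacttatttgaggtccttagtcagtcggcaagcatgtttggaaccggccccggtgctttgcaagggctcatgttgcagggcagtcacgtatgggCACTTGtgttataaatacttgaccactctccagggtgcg
Mylpf: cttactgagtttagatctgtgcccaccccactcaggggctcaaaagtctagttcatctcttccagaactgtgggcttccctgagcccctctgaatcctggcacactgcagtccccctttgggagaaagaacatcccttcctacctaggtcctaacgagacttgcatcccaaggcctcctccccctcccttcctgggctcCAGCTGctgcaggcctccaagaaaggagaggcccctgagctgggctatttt
Myh4: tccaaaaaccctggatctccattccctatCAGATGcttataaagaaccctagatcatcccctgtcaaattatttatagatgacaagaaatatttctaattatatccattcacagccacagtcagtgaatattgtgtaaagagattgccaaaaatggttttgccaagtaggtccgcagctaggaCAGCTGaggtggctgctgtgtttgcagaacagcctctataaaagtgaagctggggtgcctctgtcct

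Matches to the E-box numbered 3 in Klhl40, 1 in Murc, 1 in Mylpf and 2 in Myh4, with both strands searched (the motif reads the same on both). RefSeq's table held promoters of 31 of the 39 members, and 27 of these belonged to mature fiber genes. Of those 27, 24 (88.9%) held an E-box in the 250 bases, against 66.2% of 27025 promoters. The E-box with a GC core, CAGCTG, which is included in the first count, was in 13 of the 27 (48.1%) against 12.8% of all promoters. It was present in Klhl40, Mylpf and Myh4 and not in the Murc window. The MEF2 motif, searched as CTA and TAG with 4 bases of any kind between them, was in 1 of the 27 (3.70%) against 3.22% of all. These are matches of letters and not measured binding.

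Mature fiber genes followed single tumors and not groups. Levels are given as FPKM, that is, sequenced fragments relative to transcript length and library size. The 34 mature fiber genes summed to 869 FPKM in NSG KD 30, 661 in NSG CT 3, 351 in NSG KD 29 and 319 in NSG CT 2, whereas the other 14 tumors had between 86.0 and 195 FPKM. The 4 highest tumors were thus all from NSG mice, and 2 were ATRX CT and 2 ATRX KD. Eno3, the muscle form of the glycolytic enzyme enolase, made up 48.4% to 93.8% of the sum in those 14 tumors and 12.2% to 30.8% in the 4 highest. Without Eno3 and the giant gene Ttn, the sum ran from 6.58 FPKM in NSG KD 28 and 7.21 FPKM in Balb/c KD 56 to 716 FPKM in NSG KD 30. These genes were a small part of each library, at most 0.157% of the summed FPKM, in NSG KD 30. Weighted by transcript length, as a share of fragments, they were at most 0.271%, in NSG CT 3, with 0.166% in NSG KD 30. In tumors measured whole, fewer muscle cells and less RNA per muscle cell cannot be told apart.

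**Figure D1:**
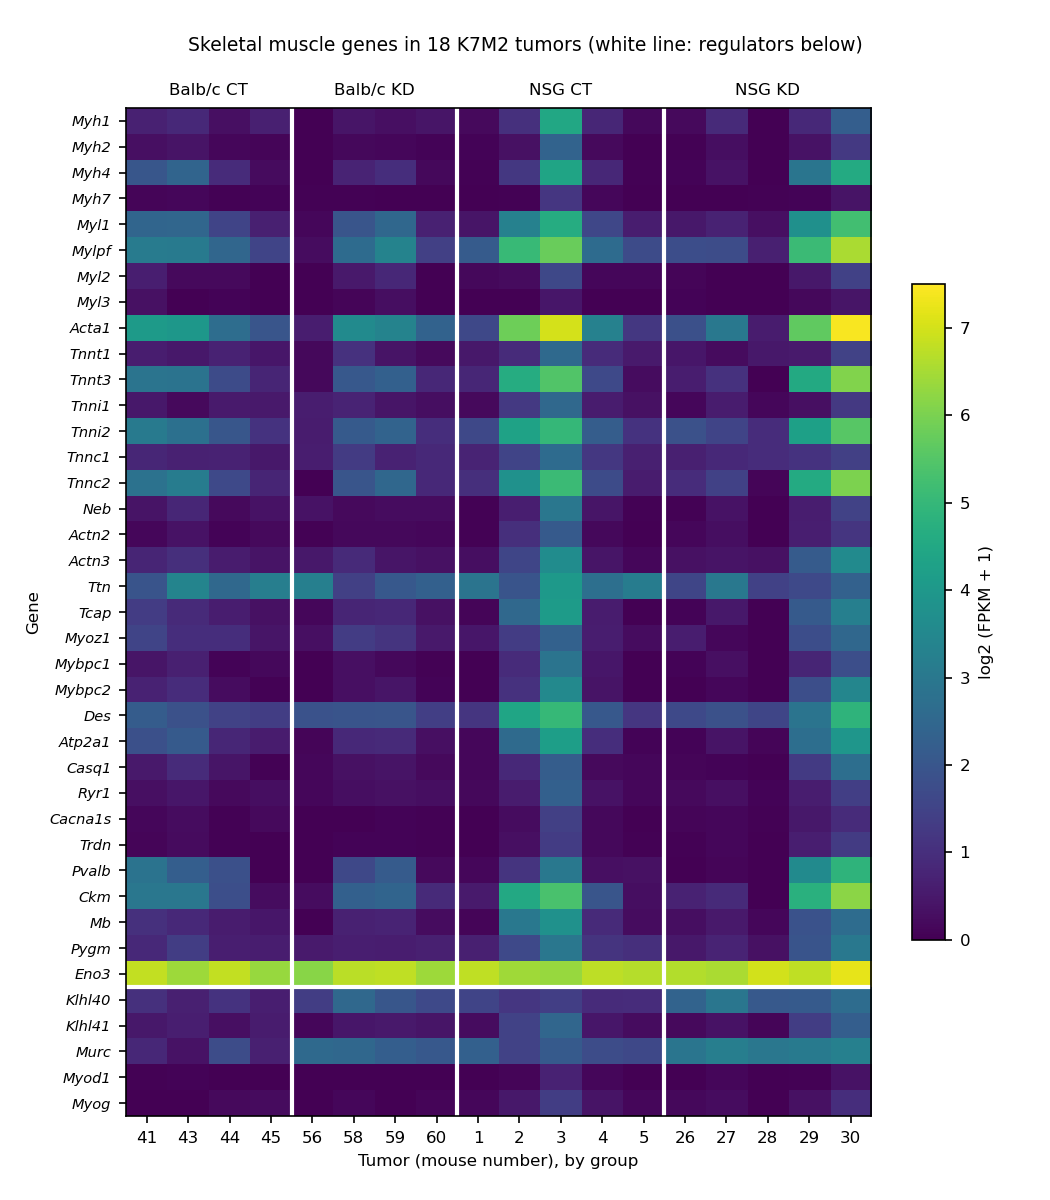
Level of the 39 skeletal muscle genes (rows) in the 18 tumors (columns, by group and mouse number), with color for log2 (FPKM + 1) and the 5 regulators under the white line. Fiber genes are bright in NSG CT 3 and NSG KD 30 and then in NSG CT 2 and NSG KD 29, Eno3 is high in every tumor, and Klhl40 and Murc are higher in the KD columns of both hosts.

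Acta1, which encodes the actin of the skeletal thin filament, had the highest median level after Eno3. In Balb/c mice it had 15.9, 14.6, 5.39 and 2.91 FPKM in the CT tumors of mice 41, 43, 44 and 45, and 0.511, 10.9, 9.14 and 4.16 FPKM in the KD tumors of mice 56, 58, 59 and 60. In NSG mice it had 2.07, 56.9, 129, 8.85 and 1.34 FPKM in the CT tumors of mice 1 to 5, and 2.59, 7.08, 0.489, 49.6 and 170.3 FPKM in the KD tumors of mice 26 to 30. The range was wide within each group, and CT and KD overlapped in both hosts. The difference between KD and CT was -0.70 ± 0.69 (log2, SE) in Balb/c mice and -0.10 ± 1.42 in NSG mice.

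Ckm, the creatine kinase that buffers ATP in fibers, had the same 4 tumors on top. It had 6.83, 6.90, 2.47 and 0.187 FPKM in the Balb/c CT tumors and 0.182, 3.91, 4.37 and 0.843 FPKM in the Balb/c KD tumors, in the same order of mice. In NSG mice it had 0.463, 21.9, 39.5, 2.92 and 0.224 FPKM in CT and 0.643, 0.866, 0, 26.1 and 71.6 FPKM in KD tumors. NSG KD 28 was listed at 0, where 3 fragments would have given 0.106 FPKM. The difference between KD and CT was -0.54 ± 0.68 (log2, SE) in Balb/c mice and -0.02 ± 1.35 in NSG mice.

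Most parts of the contractile machine had the same 2 tumors at the top. Thin filament genes (Acta1, Neb and 6 troponin genes) summed to 354 FPKM in NSG KD 30 and 259 in NSG CT 3, and to 2.53 in Balb/c KD 56. Myosin light chains (Myl1, Mylpf, Myl2 and Myl3) summed to 131 and 80.8 FPKM in the 2 highest tumors and to 0.273 in Balb/c KD 56. Excitation and calcium genes, which include the channel Ryr1, the calcium pump Atp2a1 and the calcium buffers Casq1 and Pvalb, summed to 52.3 and 35.2 FPKM and to 0.168 in NSG KD 28. In the Z-disc, titin and myosin-binding protein C group the order was turned, with 99.1 FPKM in NSG CT 3 and 70.2 in NSG KD 30. Energy and oxygen genes (Ckm, Mb, Pygm and Eno3) were the exception, with 233 FPKM in NSG KD 30, 139.9 in NSG KD 29 and 139.6 in NSG CT 3.

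Of the 33 mature fiber genes whose average over all tumors reached 0.1 FPKM, 27 had NSG CT 3 and NSG KD 30 as their 2 highest tumors, as 180 of 14803 genes did (1.22%). The exceptions were Tnni1, Tnnc1, Ttn, Pvalb, Mb and Eno3. For 19 of the 33, the 4 highest were NSG CT 2, NSG CT 3, NSG KD 29 and NSG KD 30, against 95 of all genes (0.642%). These tumors were picked for the height of the same genes, so that the counts are a description. The other mature fiber genes, a separate list of 28, had the same 4 tumors on top, with a summed 84.7, 63.1, 47.1 and 29.8 FPKM in NSG CT 3, NSG KD 30, NSG CT 2 and NSG KD 29, and at most 20.5 FPKM elsewhere.

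Fast fiber genes outweighed slow ones. Of the summed FPKM of 14 fast and 6 slow members, the fast members took 79.5% to 98.4% in 16 tumors. They took 59.4% and 60.1% in Balb/c KD 56 and NSG KD 28, where 20 and 22 of the 39 members were at or under the level of 3 fragments. Mylpf, a fast myosin light chain, ran from 0.177 FPKM in Balb/c KD 56 to 92.7 FPKM in NSG KD 30, with 54.4 FPKM in NSG CT 3. Tnnt3 and Tnni2, fast troponin genes, reached 67.0 and 45.9 FPKM in NSG KD 30, whereas their slow counterparts Tnnt1 and Tnni1 reached at most 4.91 and 4.76 FPKM, both in NSG CT 3. The 2 highest tumors differed in the fiber types that peaked in them, without a full division. The highest value was in NSG CT 3 for 6 of the 6 slow members, and in NSG KD 30 for 9 of the 14 fast members. The other 5 fast members (Myh1, Myh2, Actn3, Mybpc2 and Atp2a1) were highest in NSG CT 3. Library slopes along transcript length also differed, at 0.10 in NSG CT 3 and -0.0429 in NSG KD 30, and their part in this was not tested.

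Heavy chain genes name the fiber type, and of them Myh4 peaked in NSG KD 30, whereas fast Myh1 and Myh2 and slow Myh7 peaked in NSG CT 3. Myh4 had 3.03, 4.35, 0.886 and 0.154 FPKM in Balb/c CT tumors and 0.0164, 0.668, 0.976 and 0.119 FPKM in Balb/c KD tumors. In NSG mice Myh4 had 0.0358, 1.34, 19.7, 0.774 and 0.0231 FPKM in CT and 0.0558, 0.288, 0.00587, 6.58 and 23.1 FPKM in KD tumors. KD minus CT was -0.91 ± 0.45 (log2, SE) in Balb/c mice and 0.29 ± 1.02 in NSG mice, and the groups overlapped in both.

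Myh1 was above Myh4 in NSG CT 3 but not in NSG KD 30. It had 0.625, 0.827, 0.237 and 0.586 FPKM in Balb/c CT, 0, 0.332, 0.248 and 0.339 in Balb/c KD, 0.143, 1.05, 21.4, 0.762 and 0.116 in NSG CT, and 0.131, 0.849, 0, 0.818 and 3.70 in NSG KD tumors. Of the 4 heavy chains' sum, Myh4 was 84.9% in NSG KD 29 and 81.1% in NSG KD 30, and 70.8% to 77.8% in Balb/c CT 41, 43 and 44 and Balb/c KD 59. In NSG CT 3 Myh4 was 42.3% and Myh1 46.0%. Myh1 also led in Balb/c CT 45, Balb/c KD 60, NSG CT 1, NSG CT 5, NSG KD 26 and NSG KD 27, with 57.0% to 68.9%. Myh2 was highest in NSG CT 3 (4.19 FPKM) and at most 1.37 FPKM elsewhere, and slow Myh7 was at 1.27 FPKM there and at most 0.315 FPKM elsewhere.

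**Figure D2:**
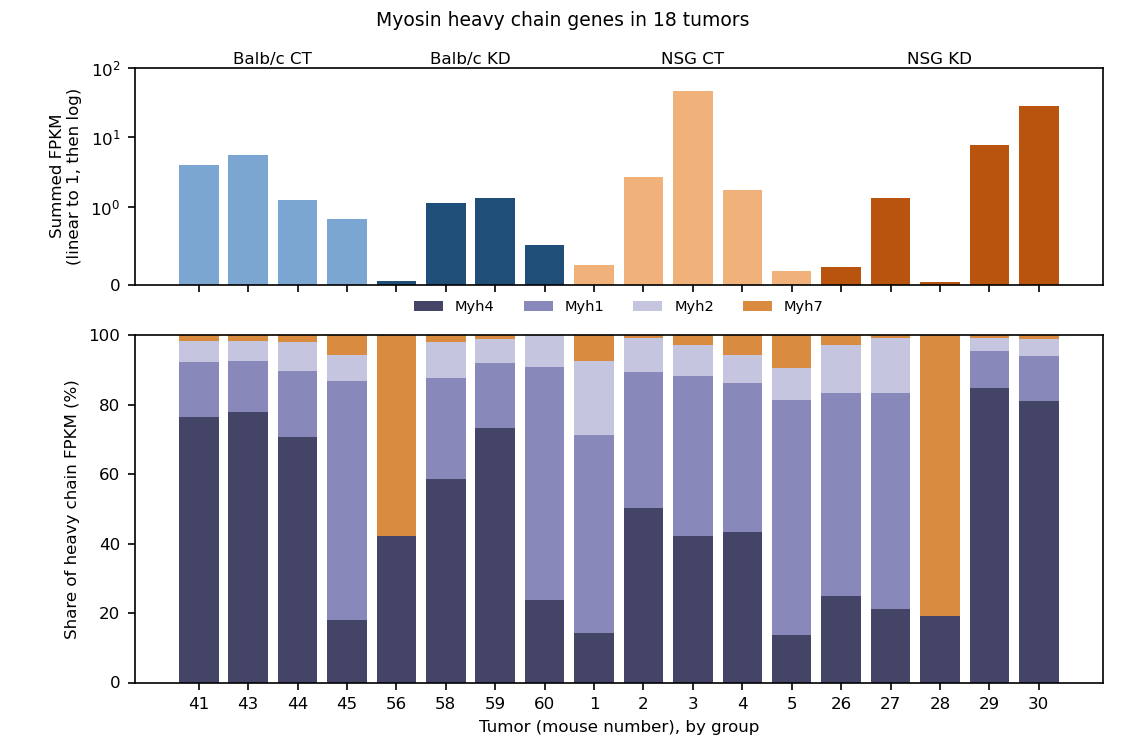
Summed FPKM of Myh4, Myh1, Myh2 and Myh7 in each tumor (top; axis linear to 1 and then logarithmic) and the share of each gene in that sum in percent (bottom). Myh4 takes most of the sum in NSG KD 29 and NSG KD 30, Myh1 and Myh4 share it in NSG CT 3, and the shares of Balb/c KD 56 and NSG KD 28 rest on an estimated 5 and 4 fragments.

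The depth behind these shares varied with the level, from an estimated 4 fragments in NSG KD 28 and 5 in Balb/c KD 56 to 6618 in NSG CT 3. Of all 75-base windows of the transcripts, 16.6% of Myh1, 16.3% of Myh2, 9.68% of Myh4 and 15.3% of Myh7 also occurred in another gene. Fragments from those stretches cannot be assigned by sequence alone. Myl1 shared 16.6% of its windows with a pseudogene, whereas Klhl40 and Murc shared none.

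Genes of excitation and the cell skeleton had the same spread. Atp2a1, the calcium pump of fast fibers, had 0.486 to 3.37 FPKM in Balb/c CT, 0.0775 to 0.843 in Balb/c KD, 0.0544 to 17.5 in NSG CT and 0.0579 to 14.4 in NSG KD tumors. Ryr1 had 0.136 to 0.383, 0.0953 to 0.272, 0.106 to 3.96 and 0.0562 to 1.61 FPKM in the same groups, and the groups overlapped. Des, the intermediate filament protein desmin of all muscle types, had at least 1.24 FPKM in every tumor and was above 6 FPKM only in NSG KD 29 (6.45), NSG CT 2 (20.1), NSG KD 30 (28.6) and NSG CT 3 (31.4).

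Other fiber genes were lower. Neb, the ruler of the thin filament, ran from 0.00313 to 6.91 FPKM, Actn3, the alpha-actinin of fast fibers, from 0.0988 to 11.6, and Casq1 from 0 to 5.58. Pvalb, a calcium buffer of fast fibers, was listed at 0 in 4 tumors and reached 28.4 FPKM in NSG KD 30. Mb, which stores oxygen and is typical of oxidative fibers, was highest in NSG CT 3 with 12.8 FPKM against 5.26 FPKM in NSG KD 30. Myl3, a light chain of slow and heart muscle, was listed at 0 in 10 tumors and at most 0.378 FPKM. The remaining members (Myl1, Myl2, Tnnc1, Actn2, Tcap, Myoz1, Mybpc1, Mybpc2, Cacna1s, Trdn and Pygm) peaked in NSG CT 3 or NSG KD 30, between 1.51 FPKM for Trdn and 36.6 FPKM for Myl1.

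Eno3 and Ttn varied less from tumor to tumor than Acta1 or Ckm. Eno3 had between 70.3 FPKM in Balb/c KD 56 and 149 FPKM in NSG KD 30, and within that range NSG CT 3, where other fiber genes were high, had only 80.5 FPKM. Ttn had 2.84, 9.49, 4.75 and 8.19 FPKM in Balb/c CT and 8.51, 1.70, 3.22 and 3.94 in Balb/c KD tumors, and 6.44, 2.85, 15.5, 5.71 and 7.96 in NSG CT and 1.99, 7.10, 1.72, 2.17 and 4.05 in NSG KD tumors. Ttn, with 101674 nt the longest transcript of the list, was highest in NSG CT 3, and CT and KD overlapped in both hosts. In Balb/c KD 56, the tumor with the highest length slope, it was at 8.51 FPKM while Acta1 was at 0.511 FPKM. KD minus CT for Ttn was -0.50 ± 0.42 (log2, SE) in Balb/c mice and -0.95 ± 0.38 in NSG mice (limma, adjusted p = 0.142). In NSG mice it became -1.08 (limma, adjusted p = 0.0255) with the length trend removed from each library, and -1.05 (limma, adjusted p = 0.0120) with library weights.

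The question of the knock-down is whether these genes differed between ATRX KD and ATRX CT tumors within a host. A gene was called when limma gave an adjusted p under 0.05 over all genes and the difference was at least 2-fold on the log2 (FPKM + 1) scale, which understates changes of low genes. In NSG mice 38 members passed the filter on low values, and 2 were called, both higher in KD tumors, Klhl40 and Murc. Of all 14654 genes tested, 0.171% were called higher and 0.293% lower. In Balb/c mice 33 members were tested and 0 were called, as 0.0068% of 14701 genes were. At an unadjusted p under 0.05, Klhl40 and Murc were higher there and Myh1 was lower, against 1.72% of genes higher and 2.42% lower.

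Klhl40 had 1.06, 0.565, 1.12 and 0.549 FPKM in the Balb/c CT tumors of mice 41, 43, 44 and 45, and 1.58, 4.81, 3.05 and 2.18 FPKM in the Balb/c KD tumors of mice 56, 58, 59 and 60. In NSG mice it had 1.90, 1.26, 1.61, 0.894 and 0.948 FPKM in CT tumors 1 to 5, and 4.22, 6.69, 3.31, 3.40 and 5.23 FPKM in KD tumors 26 to 30. Every KD tumor was above every CT tumor of its host, and each value was above the level of 3 fragments, which was at most 0.0862 FPKM. Mean levels were 0.823 ± 0.309 (SD, n = 4) against 2.90 ± 1.41 FPKM (n = 4) in Balb/c and 1.32 ± 0.431 (n = 5) against 4.57 ± 1.41 FPKM (n = 5) in NSG mice. The difference was 1.25 ± 0.18 (log2, SE; limma, adjusted p = 0.00813) in NSG mice. It was 1.05 ± 0.24 in Balb/c mice, where it was not called (limma, adjusted p = 0.474).

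Murc had 0.787, 0.298, 2.35 and 0.574 FPKM in Balb/c CT tumors and 4.86, 4.67, 3.77 and 3.20 FPKM in Balb/c KD tumors, in the same order of mice. In NSG mice it had 3.94, 1.77, 3.36, 2.36 and 2.08 FPKM in CT and 6.55, 8.26, 6.89, 7.31 and 8.53 FPKM in KD tumors. KD and CT did not overlap in either host, and the 5 NSG KD tumors lay close together. Mean levels were 1.00 ± 0.921 (SD, n = 4) against 4.13 ± 0.778 FPKM (n = 4) in Balb/c and 2.70 ± 0.914 (n = 5) against 7.51 ± 0.860 FPKM (n = 5) in NSG mice. The difference was 1.23 ± 0.16 (log2, SE; limma, adjusted p = 0.00541) in NSG mice. In Balb/c mice it was 1.44 ± 0.27 and not called (limma, adjusted p = 0.351), although it was called with library weights (1.54, adjusted p = 0.0401) and in a fit of all 4 groups (1.44, adjusted p = 0.0202).

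**Figure D3:**
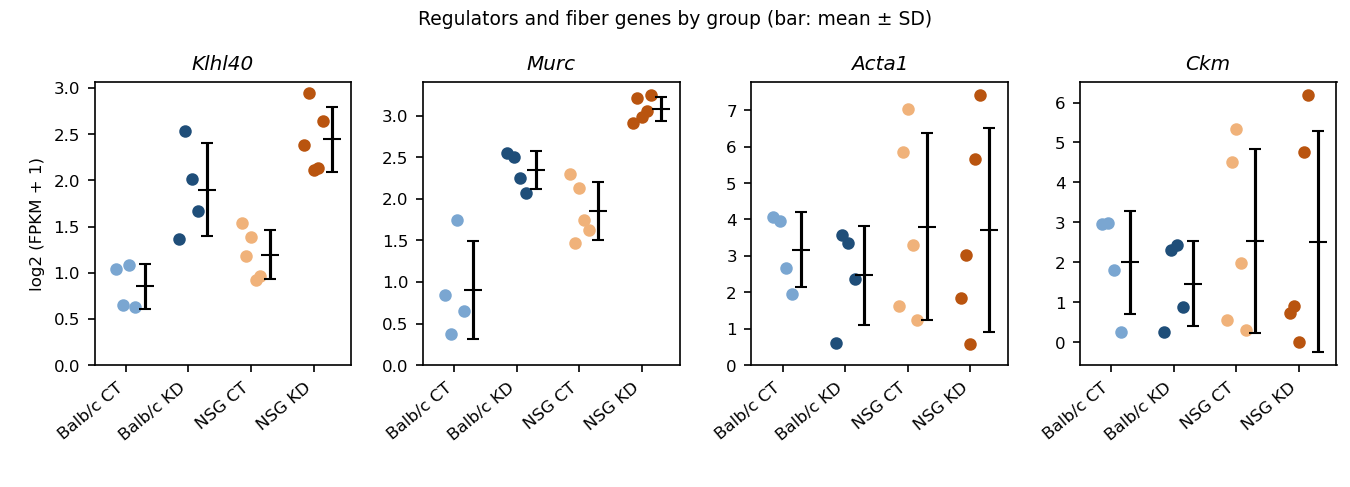
Level of Klhl40, Murc, Acta1 and Ckm as log2 (FPKM + 1) in each tumor (points) with mean ± SD of each group (bars); the 4 panels have separate axes. KD tumors lie above the CT tumors of their host for Klhl40 and Murc, whereas CT and KD overlap in both hosts for Acta1 and Ckm.

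Groups that did not overlap were 2 of the 33 members tested in Balb/c mice, both higher in KD (1.25% of all genes were), and 2 of the 38 in NSG mice (4.36% of all genes). Two-sided exact permutation tests of the single genes gave p = 0.0286 in Balb/c mice for each of Klhl40 and Murc, and p = 0.00794 in NSG mice, the smallest values that 4 against 4 and 5 against 5 tumors allow. Adjusted over the 80 such tests that were run (20 members in 4 comparisons), they became 0.381 and 0.317. Myh7, which did not pass the filter on low values in Balb/c mice, also had p = 0.0286 there by the exact test (0.381 adjusted). It was lower in KD tumors (-0.06) without overlap, and 3 of the 4 KD values were at or under the level of 3 fragments. With the knock-down effect averaged over the hosts in 1 fit, a comparison added after the values were seen, the differences were 1.15 ± 0.16 for Klhl40 (limma, adjusted p = 0.00125) and 1.34 ± 0.16 for Murc (limma, adjusted p = 0.000590). They were 2 of the 10 genes called higher (0.0676% of 14803, with 0.054% called lower), with 37 members tested. The host difference of the knock-down effect was -0.20 ± 0.31 for Klhl40 (limma, adjusted p = 0.874) and 0.21 ± 0.32 for Murc (limma, adjusted p = 0.869), and 0 members and 0 of all genes were called by this limma test, with 0 members, 4.45% of genes higher and 5.86% lower at an unadjusted p under 0.05.

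Over all tumors, Klhl40 and Murc did not have the order of the fiber genes. NSG KD 28, where 13 members were listed at 0, had 3.31 FPKM of Klhl40 and 6.89 FPKM of Murc. NSG CT 3, where 20 fiber genes peaked, had 1.61 and 3.36 FPKM. Among KD tumors the orders were partly alike. Klhl40 was lowest in the tumor with the lowest mean fiber level of each host (1.58 FPKM in Balb/c KD 56, 3.31 in NSG KD 28). Murc was highest in NSG KD 30 (8.53 FPKM), which had the highest mean fiber level of its group. In Balb/c KD tumors, however, Murc was highest in KD 56 (4.86 FPKM). The part of muscle content in the difference was not tested. Without NSG CT 3, NSG KD 30 or any other single NSG tumor, both genes stayed called, with differences of 1.12 to 1.33 for Klhl40 and 1.13 to 1.34 for Murc.

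**Figure D4:**
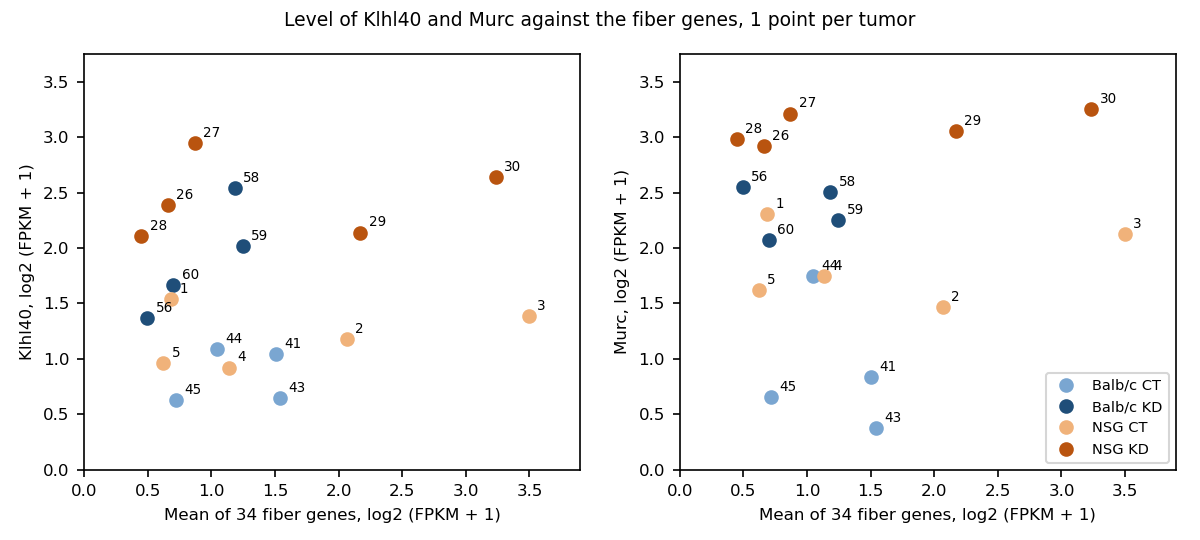
Level of Klhl40 (left) and Murc (right) against the mean level of the 34 fiber genes in the same tumor, both as log2 (FPKM + 1), with a point per tumor colored by group and numbered by mouse. NSG KD tumors with little fiber RNA, such as 26 and 28, lie above every NSG CT tumor. NSG CT 3, with the highest mean fiber level, stays below every NSG KD tumor.

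Klhl40 lies at chr9:121777607-121783819 (mm10, plus strand, 6 exons) and Murc at chr4:48663514-48673492 (plus strand, 2 exons), on different chromosomes. Of the genes next to them, Zfp651 before Klhl40 differed by -0.22 ± 0.22 in Balb/c and 0.29 ± 0.15 in NSG mice (limma, adjusted p = 0.237), and Tmeff1 before Murc by -0.05 ± 0.10 and -0.08 ± 0.08 (limma, adjusted p = 0.557). Among the other cavins, Ptrf (Cavin1), which all caveolae need, was higher in NSG KD tumors by 0.73 ± 0.17 (limma, adjusted p = 0.0307), under the 2-fold limit. Cav1, the main coat protein of caveolae outside muscle, was higher by 0.59 ± 0.12 (limma, adjusted p = 0.0187), also under 2-fold. In that comparison 6.78% of all genes had an adjusted p under 0.05 by limma, in either direction and at any fold. In Balb/c mice the differences of Ptrf and Cav1 were 0.18 and 0.29 (limma, adjusted p = 0.999 for both). The other cavins and Cav2 did not pass in NSG mice, with 0.17 for Sdpr, 0.28 for Prkcdbp and -0.20 for Cav2 (limma, adjusted p = 0.605, 0.202 and 0.610). Muscle caveolin Cav3 stayed at a mean of 0.299 FPKM or less in each group. Lmod3, a thin filament protein that KLHL40 stabilises, had a mean of 0.220 FPKM or less. These neighbors and partners were chosen after values were seen.

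Markers of 2 other tissues moved in the same direction as Klhl40 and Murc. Adipocyte markers were higher in KD tumors for 8 of 8 tested in Balb/c mice (median 0.67) and 9 of 9 in NSG mice (median 0.88). Endothelial markers were higher for 8 of 8 in each host (medians 0.54 and 0.75), with 0 called by limma in either list. Of all genes, 49.2% were higher in KD tumors in Balb/c and 49.8% in NSG mice. Macrophage markers went the other way, lower in KD tumors for 7 of 8 in each host (medians -0.12 and -0.47), with 0 called. Of the endothelial markers, Pecam1, Tie1 and Cldn5 had an adjusted p under 0.05 in NSG mice with less than 2-fold differences. Such an adjusted p, at any fold, was found for 6.78% of all genes there. The summed level of the 9 adipocyte markers was 84.4 to 101 FPKM in Balb/c CT, 126 to 266 in Balb/c KD, 71.7 to 128 in NSG CT and 54.0 to 410 in NSG KD tumors, and none but Lep was listed at 0 in any tumor. The 8 endothelial markers summed to 54.6 to 86.6, 75.9 to 181, 26.0 to 62.5 and 55.1 to 77.0 FPKM in the same groups, with none at 0. Among NSG CT tumors the endothelial sum was 62.5 FPKM in NSG CT 3 and 26.0 to 35.7 FPKM in the others, which lay below every NSG KD tumor. The adipocyte sums of NSG CT and NSG KD tumors overlapped. The part of these tissues in the difference of Klhl40 and Murc was not tested.

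Klhl41, the relative of Klhl40, followed the fiber genes. It had 0.401, 0.550, 0.239 and 0.475 FPKM in Balb/c CT, 0.107, 0.374, 0.423 and 0.331 in Balb/c KD, 0.193, 1.81, 4.55, 0.363 and 0.191 in NSG CT, and 0.137, 0.282, 0.0827, 1.56 and 3.76 in NSG KD tumors. Its 4 highest tumors were those of the fiber genes. The myogenic factors were near the limit of detection: Myod1 was at or under the level of 3 fragments in 15 of 18 tumors and Myog in 9 of 18, and both peaked in NSG CT 3, at 0.645 and 1.55 FPKM.

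No other member was called in the knock-down comparisons as reported, and Ttn became a call in NSG mice under the 2 alternatives given above. In the knock-down comparison 27 of 33 members tested in Balb/c mice were lower in KD tumors (50.8% of all genes were), with a median of -0.21 against -0.00 over all genes, and 27 of 38 in NSG mice (50.2% of all genes), with a median of -0.12. The NSG median had no stable sign, with 0.28 without NSG CT 3, -0.50 without NSG KD 30 and 0.54 with library weights. Fiber genes share their highest tumors, and so these counts do not rest on independent genes. Myh7 and 5 others (Myl3, Cacna1s, Trdn, Myod1 and Myog) did not pass the filter on low values in Balb/c mice, and Myl3 did not in NSG mice.

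**Figure D5:**
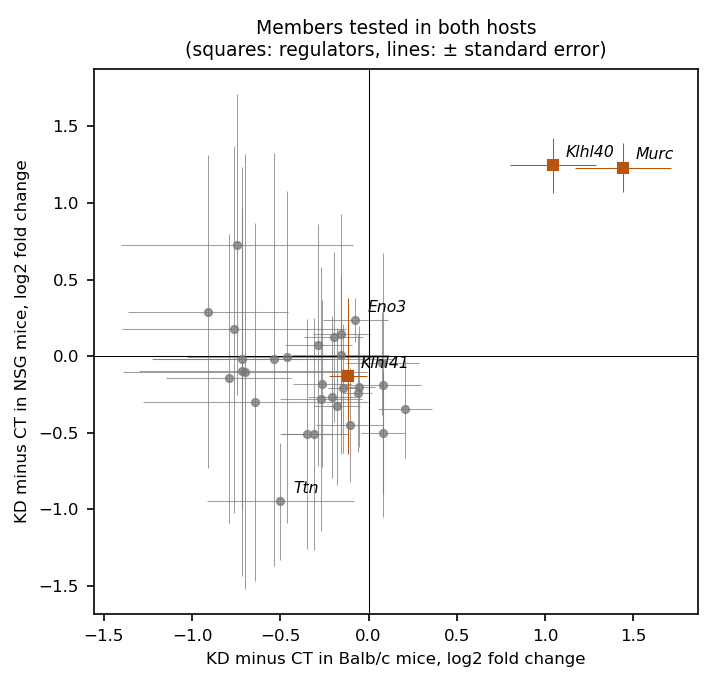
Log2 fold change of KD minus CT in Balb/c mice (horizontal) and NSG mice (vertical) for the 33 members tested in both hosts, with lines of ± standard error, gray circles for fiber genes and orange squares for regulators. Klhl40 and Murc lie apart at upper right, and the vertical error lines of most fiber genes cross 0.

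The members were also compared between hosts, in the same tumors as above. In CT tumors 36 of 38 members tested were lower in Balb/c than in NSG mice (48.7% of all genes were), with a median of -0.45, and 0 were called, against 0.883% of genes called higher and 0.546% called lower. In KD tumors 34 of 36 were lower (52.9% of all genes), with a median of -0.55, and 0 were called, against 1.12% called higher and 0.266% called lower. At an unadjusted p under 0.05 there was 1 member lower in each, Murc in both (7.87% of all genes in CT and 6.5% in KD tumors). The median in CT tumors turned sign without NSG CT 3 (0.03) and with library weights (0.08). The median in KD tumors was -0.16 without NSG KD 30. In KD tumors 7 members were lower by at least 2-fold (0.614% of all genes were), Myh4, Mylpf, Acta1, Tnnt3, Tnni2, Tnnc2 and Ckm, and none of the 7 passed the test. For each of the 7, NSG KD 29 and NSG KD 30 were far above the other 3 tumors of the group, as for Tnnc2 with 22.9 and 63.7 FPKM against 1.72 FPKM or less.

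Murc was the member that differed most clearly between hosts. It was lower in Balb/c than in NSG KD tumors by 0.74 ± 0.14 on the log2 scale (limma, adjusted p = 0.0131), less than 2-fold (3.64% of all genes had such an adjusted p), and the groups did not overlap, as in 3.05% of all genes. In CT tumors the difference was -0.95 ± 0.27 (limma, adjusted p = 0.0948), and without Balb/c CT 44, the highest of its group, -1.23 (limma, adjusted p = 0.00857). Klhl40 differed by -0.35 ± 0.16 in CT (limma, adjusted p = 0.264) and -0.55 ± 0.25 in KD tumors (limma, adjusted p = 0.313).

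Genes of newly formed fibers were near 0 in every tumor but NSG CT 3. Embryonic Myh3 was at 1.48 FPKM in NSG CT 3 and at most 0.0696 FPKM in the other 17 tumors, and neonatal Myh8 at 0.439 and at most 0.0754 FPKM. Cardiac actin Actc1, which fibers use while they form, was at 2.71 FPKM in NSG CT 3 and at most 0.154 FPKM elsewhere. NSG KD 30 had 0.0573, 0.0407 and 0.144 FPKM of these 3 genes, although its summed fiber level was higher than that of NSG CT 3.

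Pax7, the marker of satellite cells, was at or under 0.0113 FPKM in every tumor, and Myf5 at or under 0.0551 FPKM. The acetylcholine receptor genes of immature fibers were at 0.308 FPKM (Chrng) and 1.56 FPKM (Chrna1) in NSG CT 3, and Chrna1 was at 0.381 to 1.20 FPKM in the other tumors. Myf6, the myogenic factor that adult fibers keep, was at 1.78, 1.39, 1.19 and 0.606 FPKM in NSG CT 3, NSG CT 2, NSG KD 30 and NSG KD 29, and at most 0.343 FPKM elsewhere. Of the 16 regeneration genes, 4 passed the filter in the Balb/c and 8 in the NSG knock-down comparison, and 0 were called in either. The same held for the other mature fiber genes, with 16 and 26 of 28 tested and 0 called. Cardiac markers, with 5 of 9 tested in each host, also gave 0 calls.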

How the data were processed

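Tumor RNA was depleted of ribosomal RNA and sequenced as stranded paired reads. Per the labels and the study's methods, the authors aligned reads to mm10 with STAR 2.6.0c, removed duplicates, computed FPKM with Cufflinks 2.2.1 and deposited log2 (FPKM + 1) values for 20878 genes. The base of the logarithm was settled from the values, whose base 2 totals came to 1.099 to 1.131 of the expected total. Raw reads per gene were not recovered (35.3% to 42.7% of low values near whole, with 20% by chance), so that no count test was run.

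Genes that averaged 0.1 FPKM or more over the samples of a fit were tested with limma 3.58.1 (R 4.3.3; moderated test with a mean-variance trend), with Benjamini-Hochberg adjustment over all genes. A call needed an adjusted p under 0.05 and at least 2-fold. Two-sided exact permutation tests (scipy 1.17.1) were run for 20 members in 4 comparisons. P-values measure the spread between tumors. The floor of a value is what 3 fragments would give, and covers counting error only. The fit was tested on simulated data.

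All 39 members are accounted for. Values by tumor or group are given for 20 members and for every called member, and the others by range. The members and lists were chosen with earlier results of these data known. Alternatives were a pseudocount of 0.1, no filter, a filter of 1 FPKM, median-ratio scaling, library weights with a robust prior, removal of the length trend, a fit of all 4 groups, no fold limit, shares of fragments and leaving out each tumor.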

Additional observations from a re-analysis of the deposited data

Results flagged for a closer look

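Among 92 sets of tumors (a member, a mean level of members or the share of fast genes, in a group), 9 held a tumor whose gap to the nearest other was above Dixon's 95% critical value, where 4.6 are expected by chance if the sets were independent. Fiber genes share their highest tumors, so the sets are not independent. Values are log2 (FPKM + 1). In NSG CT 3, Myh4 was 4.37 (the other 4 tumors of the group 0.03 to 1.23), Myh1 4.49 (0.16 to 1.04) and Myh2 2.37 (0.02 to 0.33). The same tumor had Myh7 at 1.18 (0.02 to 0.14), Tnnt1 at 2.56 (0.48 to 0.93), Ryr1 at 2.31 (0.14 to 0.57) and Myod1 at 0.72 (0 to 0.12). In NSG KD 30, Myh7 was 0.39 (0.01 to 0.07) and Tnnt1 1.49 (0.23 to 0.54), both of them slow fiber genes.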

How the results depend on the processing

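Klhl40 and Murc were called higher in NSG KD tumors under every alternative run, with log2 differences of 1.17 to 1.72 (adjusted p 0.000566 to 0.0149) and 1.21 to 1.5 (adjusted p 0.000293 to 0.0108) in limma. Another member, Ttn, became a call in NSG mice with library weights and with the length trend removed. In Balb/c mice 1 member, Murc, was called with library weights and 1, again Murc, in the fit of all 4 groups, against 0 as reported. Between hosts in CT tumors 1 member was called with library weights, and 0 to 1 when a tumor was left out (1, Murc, without Balb/c CT 44). In KD tumors 1, Murc, was called without the fold limit.

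With library weights, differences between NSG KD and CT tumors changed sign for Acta1 (1.44) and Ckm (1.62), as did the host difference of Klhl40 (0.11). Leaving out a tumor gave -1.03 to 0.70 for Acta1, -0.94 to 0.68 for Ckm and -0.46 to 1.06 for Myh4, the lowest each without NSG KD 30 and the highest without NSG CT 3. Medians over the members ran from -0.50 to 0.28 in that comparison and from -0.67 to 0.03 between hosts in CT tumors when a tumor was left out. The median share of the mature fiber genes in a group moved by more than the group's SD in 5 cases and not in 3. These cases took shares of fragments, or left out Eno3 and Ttn. In all, 17 of the values of single members changed sign, 5 became calls and 330 kept both. The cause was not tested.

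No paired analysis was possible because the mouse numbers are not shared between groups. Depth was estimated and not given, and members near 3 fragments, such as Myod1, Myl3 and Myh7, are limited by it.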

Other observations

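In each host, the tumor that held the highest value of the most members was set against the median of the remaining tumors, gene by gene. Any tumor has genes of largest excess, so the lists are a description. NSG CT 3 held the highest value of 20 of 33 mature members. Its genes with the largest excess over the median of the other NSG tumors were mostly small RNA genes (Snord83b, Mir5133, Snord32a, Snord23, Snord67, Mir1668, Snora65, Mir3473e and n-R5s136), together with Chil3. These small RNA genes were 77 to 121 nt long and had a median of 0 FPKM in the other tumors. At such lengths few fragments can give a high FPKM. Among transcripts of at least 300 nt, a limit chosen after values were seen, the macrophage chitinase-like gene Chil3 was at 53.8 FPKM against a median of 2.44, the fetal transcript H19 at 18.5 against 0.722, and Car3, a carbonic anhydrase of slow muscle and fat, at 48.0 against 3.37. Sln, which encodes sarcolipin, a regulator of the calcium pump, was at 6.90 against 0.276 FPKM, and Pgam2, the muscle phosphoglycerate mutase, at 5.37 against 0.251. Car3, Sln and Pgam2 were higher in another NSG tumor, as were Mir5133, Snord32a, Snord23, Mir3473e and n-R5s136.

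In Balb/c CT 43, with the highest value of 15 of 30 members, the leading genes were also small RNA genes (Mir5133, Snord32a, Mir15a, AF357399, Mir345, Mir6374, Mir6516, Snora2b, Snora75 and Mir6240). They were 77 to 117 nt long, with the same limit. Of transcripts of at least 300 nt, the mast cell protease gene Tpsb2 was at 59.7 FPKM against a median of 19.3 in the other Balb/c tumors, Jchain, of antibody-secreting cells, at 13.8 against 2.27, and Cx3cr1, a chemokine receptor of myeloid cells, at 26.9 against 7.49. Tpsb2 and Cx3cr1 were higher in another Balb/c tumor. Of the small RNA genes named, only Mir15a, Mir345 and Mir6516 were highest in Balb/c CT 43. Keratinocyte markers were lower in KD than in CT tumors of Balb/c mice for 9 of 9 tested, with a median of -0.51 on the log2 scale and 0 called by limma. Their sum was 110.3 FPKM in Balb/c CT 45 and 19.4 FPKM in Balb/c KD 60, and 2.56 to 3.08 FPKM in the other 6 Balb/c tumors, so that without Balb/c CT 45 the sum was not lower in KD than in CT tumors. In NSG mice 6 of 8 were higher in KD tumors, with a median of 0.22 and 0 called.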
